A study of Mus musculus with 7 samples.

Results

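A set of 43 genes of intraflagellar transport, the BBSome, the transition zone and ciliary Hedgehog signalling was followed in the growth plate, out of 43346 genes with deposited counts. The members were taken by gene symbol from a list of genes known for ciliary transport and ciliary skeletal disease, and all 43 were found, on 17 chromosomes. Proximal and distal tibial growth plates came from 7 male C57BL/6J × CAST/EiJ F1 mice aged 21 d, each carrying 1 genome copy of C57BL/6J (B6) and 1 of CAST/EiJ (CAST), with no treatment and no other genotype. The mice keep the numbers of their labels, 1, 2, 3, 4, 5, 7 and 8, and the comparison in every mouse is between its CAST and its B6 allele, the question being which genes differ in expression between the alleles in the tissue where bones lengthen. A difference within an F1 animal is between alleles in the same nuclei, so the values describe 1 sex, 1 age and 1 pair of strains. They also describe 1 direction of the cross, since the X-linked counts given below show B6 mothers. The B6 allele is thus the maternal and the CAST allele the paternal one, and strain and parent of origin cannot be told apart.

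Intraflagellar transport (IFT) is the movement of protein trains along the microtubules of a cilium. The IFT-B complex travels to the tip with the kinesin-2 motor, the IFT-A complex and the dynein-2 motor serve the return, and the BBSome carries membrane proteins with the trains. Growth plate chondrocytes bear a primary cilium through which Hedgehog signals are read, and loss of many of these genes in people shortens the ribs and limbs.

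Each mouse had 14098019 to 37849667 counts. The labels call the tissue growth plate chondrocyte, and all 10 chondrocyte markers were counted in every mouse, with a summed level of 62910 to 100300 counts per 1000000 counts of the mouse (CPM). Osteoblast markers (5 of 5 counted in every mouse) summed to 72910 to 125200 CPM, and erythroid (3 of 3), neutrophil (4 of 4), osteoclast (4 of 4) and skeletal muscle (3 of 3) markers were also counted in every mouse. The libraries therefore hold RNA of several cell types, and in such tissue fewer cells of a type and less RNA per cell cannot be told apart. Markers of motile ciliated cells summed to 4.66 to 7.00 CPM, with Rsph1 highest at a mean of 2.41 CPM, 9 of 10 counted in every mouse, and Tekt1 at 0 in some. The member genes together summed to 431 to 507 CPM in the same mice.

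All 43 members were expressed from the growth plate, with 16 to 1947 counts per mouse, and all passed the filter of a count in every mouse. At a false discovery rate (FDR) below 0.20, adjusted over all 20235 genes tested with edgeR's likelihood-ratio test, 13 members (30.2%) differed between the alleles, beside 34.5% of all genes tested. Of these, 5 were higher on CAST (Tctn2, Bbs10, Ift57, Dync2li1 and Ift52), where 16.0% of all genes were called. The other 8 were higher on B6 (Ift140, Ift22, Ift43, Evc2, Ttc21b, Ift46, Ift172 and Kif3a), where 18.5% of all genes were called. Among genes counted 10 times or more in every mouse the same number of members, 13, was called, and 37.1% of all genes. The share of members called was thus no higher than the share over the whole table.

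In 7 of the 13 called members the direction was the same in all 7 mice. For such a gene, 2-sided exact permutation of the signs of 7 log2 ratios always gives its smallest p, 0.0156, whatever the size of the ratios. This p thus restates the shared direction and is no further evidence. These 7 genes are 16.3% of the members, beside 24.6% of all genes tested, and the p adjusted over all genes is 0.0635. For 6 members the CPM of the higher allele exceeded the CPM of the lower allele across all 7 mice without overlap (Ift140, Ift22, Evc2, Ift46, Ift57 and Tctn2), beside 10.5% of genes counted 10 times or more in every mouse. The median log2 fold change, CAST over B6, was -0.07 over the members and 0.01 over all genes tested, and the median absolute log2 fold change was 0.14 over the members and 0.18 over genes counted 10 times or more in every mouse.

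**Figure D1:**
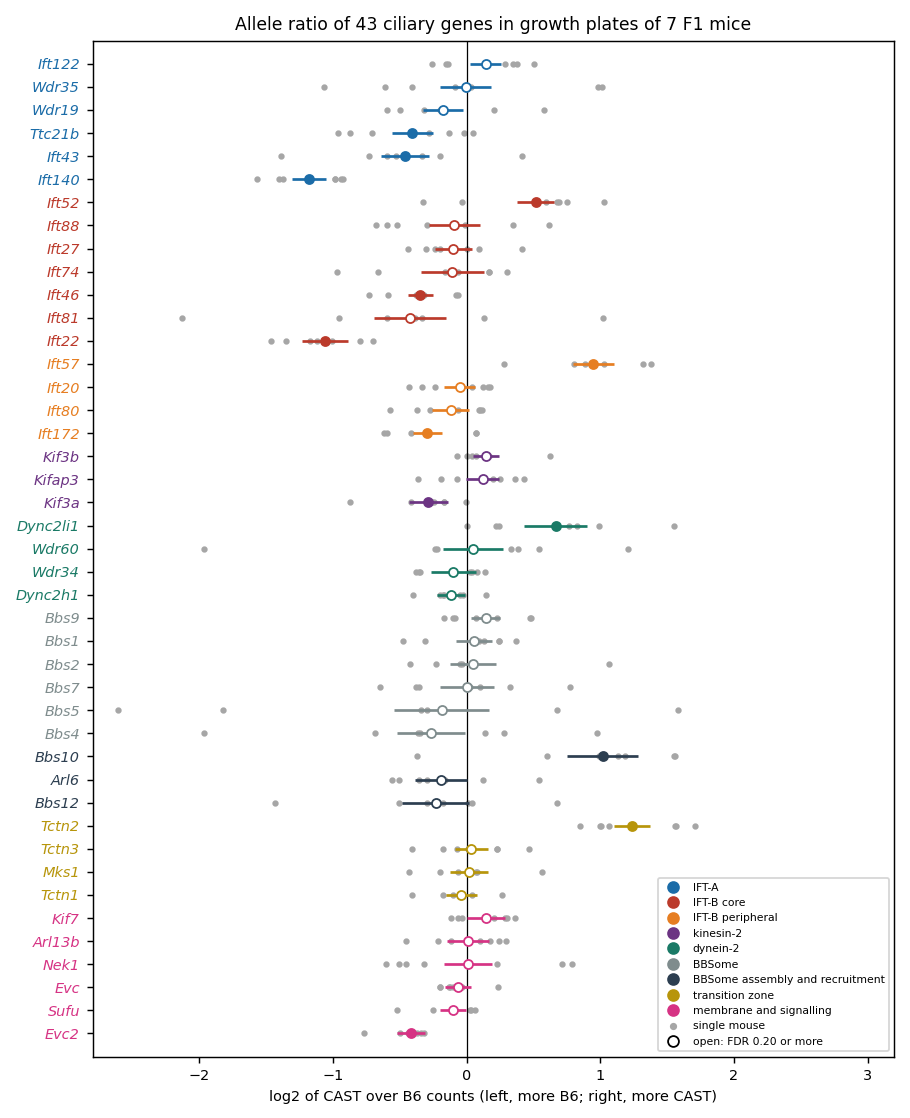
Allele ratio of each member, as log2 of CAST over B6 counts on the horizontal axis, by complex or role on the vertical axis. Grey points are the 7 mice, large points the edgeR log2 fold change with its SE, filled where the FDR is below 0.20. Ift140 and Ift22 lie farthest to the B6 side and Tctn2, Bbs10 and Ift57 farthest to the CAST side, while the points of all 6 BBSome subunits are open, with fold changes from -0.27 to 0.14 and single mice of Bbs5 from -2.61 to 1.58.

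The IFT-A complex, which draws cargo back from the ciliary tip, had 3 of 6 subunits called, and all 3 were higher on B6, beside 34.5% of all genes called and 18.5% called higher on B6. Ift140 (ENSMUSG00000024169, chr17:25016085-25099495, plus strand), a core subunit of IFT-A mutated in thoracic skeletal ciliopathies, had the smallest FDR of the set. Its B6 counts were 797, 619, 585, 502, 1457, 502 and 629 in mice 1, 2, 3, 4, 5, 7 and 8, and its CAST counts in the same order were 403, 321, 307, 253, 490.4, 193 and 237. The B6 allele was higher in every mouse and gave 69.1% ± 3.92 of the counts (SD, n = 7). The log2 fold change was -1.18 ± 0.128 (SE), with an edgeR FDR of 1.33e-18.

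The size of the Ift140 difference varied between mice. The log2 ratio was -0.98, -0.94, -0.93 and -0.98 in mice 1 to 4, and -1.57, -1.38 and -1.41 in mice 5, 7 and 8. In mice 5 and 7 the B6 allele stood at 38.5 and 35.6 CPM, above the 20.8 to 26.5 CPM of the other mice, while the CAST allele stood at 13.0 and 13.7 CPM, beside 10.01 to 13.2 CPM in the others. In mouse 8 the B6 allele was at 26.5 CPM and the CAST allele, at 10.01 CPM, was the lowest of the 7. The erythroid marker sum was 8411, 7828 and 5968 CPM in mice 5, 7 and 8, beside 3409 to 4358 CPM in mice 1 to 4. The B lineage sum, with 4 of 4 markers counted in every mouse, was 224.5, 243 and 179.5 CPM in mice 5, 7 and 8, beside 83.2 to 157 CPM in mice 1 to 4. Neutrophil markers were highest in mice 5 and 7 (1741 and 1686 CPM), and mouse 8, at 1230 CPM, lay below mouse 4 at 1291 CPM. The osteoblast marker sum was lower in these mice, at 79610, 73470 and 72910 CPM in mice 5, 7 and 8 beside 86020 to 125200 CPM in mice 1 to 4. Most of it was Col1a1 and Col1a2, at means of 46550 and 44680 CPM, beside 1626 CPM for Bglap. Most of the erythroid sum was Hbb-bs, at a mean of 5098 CPM. The other markers of these lists therefore weigh little in the sums. The sums of chondrocyte, osteoclast, endothelial and skeletal muscle markers overlapped between the 2 sets of mice. The sets were formed by the Ift140 ratio itself, after its values were seen. No marker of these lists was at 0 in any mouse, and the part of cell makeup in the Ift140 ratio was not tested.

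**Figure D2:**
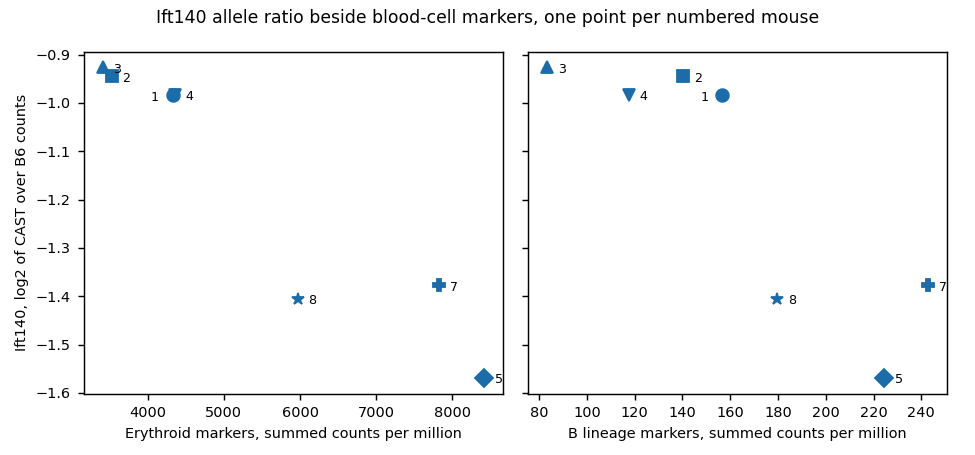
Ift140 log2 ratio of CAST over B6 counts against the summed CPM of 3 erythroid markers (left) and 4 B lineage markers (right), 1 numbered point per mouse. Most of the erythroid sum is Hbb-bs. Mice 5, 7 and 8 have ratios between -1.57 and -1.38 and the highest sums in both panels, and mice 1 to 4 have ratios between -0.98 and -0.93. Marker sums of chondrocytes, osteoclasts, endothelium and skeletal muscle, not drawn, overlapped between these sets of mice.

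Among the other IFT-A subunits, Ift43 and Ttc21b differed less. Ift43, a small subunit, had 79.8 ± 27.0 B6 and 56.1 ± 16.4 CAST counts (mean ± SD, n = 7), an FDR of 0.0403 by edgeR and a fold change of -0.46 ± 0.178 (SE) on the log2 scale. It was higher on B6 in 6 of 7 mice, mouse 4 having a log2 ratio of 0.41, and without mouse 8, whose ratio was -1.39, the fold change was -0.32 with an FDR of 0.231. Ttc21b, which encodes IFT139, had a log2 fold change of -0.41 ± 0.153 with an edgeR FDR of 0.0341, and was higher on B6 in 6 of 7 mice. Ift122, Wdr19 and Wdr35 did not pass, with log2 fold changes of 0.14 ± 0.115, -0.18 ± 0.150 and -0.0094 ± 0.191 (SE).

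The IFT-B core had 3 of 7 subunits called, of which Ift22 and Ift46 were higher on B6 and Ift52 on CAST. Ift22 (ENSMUSG00000007987, chr5:136908150-136915404, plus strand), a small GTPase-like subunit, had B6 counts of 103, 111, 99.4, 82.3, 175, 84.7 and 104 in mice 1, 2, 3, 4, 5, 7 and 8. Its CAST counts in the same order were 50.9, 63.6, 38.6, 37.7, 77.3, 30.3 and 63.5, lower than B6 in every mouse. The B6 share was 68.0% ± 4.22 (SD, n = 7) and the log2 fold change -1.06 ± 0.171 (SE), with an FDR of 8.83e-09 by edgeR.

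Ift46 (ENSMUSG00000002031, chr9:44767908-44793447, plus strand) showed a smaller difference on more counts. On B6 it had 385, 357, 380.3, 247, 417, 149 and 301 counts in mice 1, 2, 3, 4, 5, 7 and 8, and on CAST 302, 286, 229, 164, 396, 142 and 232. All 7 mice were higher on B6, but mice 5 and 7 only by log2 ratios of -0.077 and -0.065. CAST over B6, the fold change was -0.35 ± 0.0967 (SE, log2 scale), with an edgeR FDR of 0.00237, and in 3 mice the total was not a whole number, which marks reads divided with another gene.

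Ift52, a subunit that holds the IFT-B core together, went the other way, with 123 ± 41.1 B6 and 173 ± 66.9 CAST counts (SD, n = 7). The log2 fold change was 0.51 ± 0.138 (SE) and the FDR 0.00136 by edgeR, although mice 2 and 4 had log2 ratios of -0.33 and -0.036 against 0.60 to 1.03 in the other 5. Ift81, Ift74, Ift88 and Ift27 did not pass. Ift81, the lowest of them in level, had log2 ratios from -2.13 in mouse 5 to 1.02 in mouse 4 and a fold change of -0.42 ± 0.268 (SE). Its FDR by edgeR was 0.283 on all mice and 0.0345 without mouse 4, where the fold change was -0.69.

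Of the 4 peripheral IFT-B subunits, Ift57 was called higher on CAST and Ift172 higher on B6. Ift57 (ENSMUSG00000032965, chr16:49699233-49765126, plus strand), a subunit at the periphery of the IFT-B train, had B6 counts of 41.4, 51.8, 50.9, 31.5, 78.8, 24.9 and 59.1 in mice 1, 2, 3, 4, 5, 7 and 8. Its CAST counts were 109, 106, 89.1, 60.4, 146, 63.1 and 71.8, higher in every mouse, least so in mouse 8 at a log2 ratio of 0.28. On the log2 scale the difference was 0.95 ± 0.154 (SE), with an FDR of 1.08e-08 by edgeR. Totals of Ift57 were not whole in 6 mice, and its exons overlap those of the antisense gene Gm15518 over 225 bases, which had a mean of 6.78 counts. Whether counting used the strand is not given in the sources used here, so reads of overlapping genes on opposite strands cannot be told apart.

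Ift172, the largest IFT-B protein, drew 55.2% of its counts from B6 on average, and its log2 fold change was -0.29 ± 0.108 (SE) with an edgeR FDR of 0.031. It was higher on B6 in 5 of 7 mice, and mice 1 and 7 both had a log2 ratio of 0.07. Ift20 and Ift80 did not pass, with log2 fold changes of -0.054 ± 0.115 and -0.12 ± 0.139 (SE). Totals of Ift80 were not whole in any mouse. Across all 17 IFT subunits, 8 were called, beside 34.5% of all genes tested.

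Among the motors, 1 of 3 kinesin-2 and 1 of 4 dynein-2 subunits were called, beside 34.5% of all genes tested. Kif3a (ENSMUSG00000018395), a motor subunit of kinesin-2, had B6 counts of 76.3, 68.7, 69.96, 42.1, 89.98, 33.2 and 48.0 in mice 1, 2, 3, 4, 5, 7 and 8, and CAST counts of 67.7, 37.3, 62.1, 41.9, 67.1, 27.8 and 39.97. The B6 allele was higher in each, in mouse 4 by 42.1 to 41.9 counts only, and mouse 2 had the widest gap. The log2 fold change was -0.29 ± 0.148 (SE) with an FDR of 0.161 by edgeR, and without mouse 2 it was -0.20 with an FDR of 0.451. The FDR was also above 0.20 without mouse 1, 5, 7 or 8 (0.203, 0.337, 0.231 and 0.245). Its partners Kif3b and Kifap3 did not pass, at 0.14 ± 0.0973 and 0.12 ± 0.121 (SE) on the log2 scale.

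Dync2li1 (ENSMUSG00000024253), the light intermediate chain of dynein-2, was the called dynein-2 subunit. Its mean counts were 27.8 ± 14.8 on B6 and 42.6 ± 17.8 on CAST (SD, n = 7), with a log2 fold change of 0.66 ± 0.235 (SE) and an FDR of 0.0217 by edgeR. CAST was higher in 6 mice, and in mouse 1 both alleles stood at 50 counts. The heavy chain Dync2h1 and the intermediate chains Wdr34 and Wdr60 did not pass, with log2 fold changes of -0.12 ± 0.108, -0.099 ± 0.165 and 0.047 ± 0.224 (SE).

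**Figure D3:**
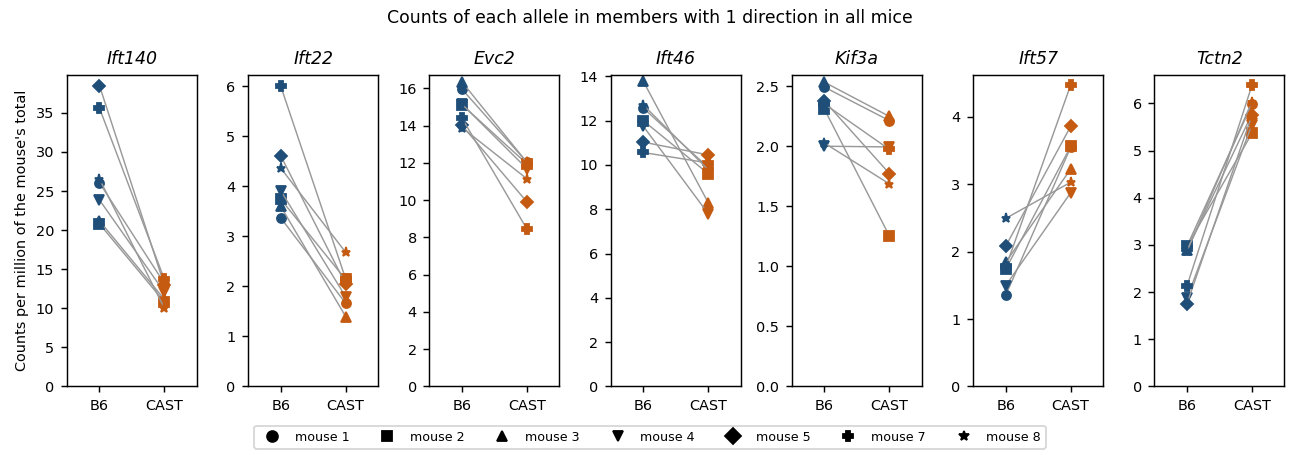
CPM of the B6 (blue) and the CAST (orange) allele for the 7 called members with 1 direction in all mice, with a line for each mouse and an axis from 0 in each panel. Ift140, Ift22, Evc2 and Ift46 fall from B6 to CAST and Ift57 and Tctn2 rise without overlap between the alleles, whereas the Kif3a alleles overlap.

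None of the 6 BBSome subunits was called, beside 34.5% of all genes tested. Their FDRs were from 0.416 upward in edgeR's likelihood-ratio test, and 0 had an unadjusted p below 0.05. The quasi-likelihood test and DESeq2 also called 0 of the 6, with lowest unadjusted p-values of 0.179 and 0.186. On the log2 scale the fold changes lay between -0.27 and 0.14, and Bbs1, Bbs2, Bbs5, Bbs7 and Bbs9 were at 0.051, 0.047, -0.19, 0.0030 and 0.14. Mean totals ran from 30.2 counts per mouse for Bbs5 to 407 for Bbs9, with SEs of the fold change of 0.354 and 0.109. In the subunits with few counts a difference could therefore be missed. Bbs4 (ENSMUSG00000025235, chr9:59321990-59353508, minus strand) lies in Feml2, the chromosome 9 region that the study mapped for femur length. Its B6 counts were 75.2, 31.4, 40.2, 29.1, 72.1, 13.0 and 29.8 in mice 1, 2, 3, 4, 5, 7 and 8, and its CAST counts were 18.9, 34.6, 48.8, 17.9, 55.9, 26.0 and 23.2. The alleles overlapped widely, mouse 1 leaning to B6 with a log2 ratio of -1.97 and mouse 7 to CAST with 0.98. The fold change of Bbs4 was -0.27 ± 0.252 (SE), with an FDR of 0.536 by edgeR and an exact sign-flip p of 0.5, on a mean of 73.7 counts per mouse. Without mouse 1 the fold change was -0.0026, and without mouse 7 it was -0.43.

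Bbs4 ends within its neighbour Adpgk, an ADP-dependent glucokinase gene on the opposite strand, their exons overlapping by 194 bases. Adpgk had a log2 fold change of -0.61 ± 0.120 (SE) and an edgeR FDR of 5.92e-06. The study also called Adpgk higher on B6, at a similar fold change. Its own FDR, though below 0.20, was far larger than the one given here, and the reason for the gap was not tested. The totals of Bbs4 were whole in all 7 mice, that is, no read was divided between genes to a tolerance of 1e-04 counts.

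Bbs10, a chaperonin-like protein needed to assemble the BBSome, was called higher on CAST, while Bbs12 and Arl6, the GTPase that recruits the BBSome to membranes, did not pass. Bbs10 had B6 counts of 7.37, 8.39, 10.9, 6.84, 20.8, 10.2 and 13.8 in mice 1, 2, 3, 4, 5, 7 and 8 and CAST counts of 22.6, 25.6, 22.1, 16.2, 46.2, 7.78 and 21.2. CAST was higher in all but mouse 7. The log2 fold change of Bbs10 was 1.02 ± 0.269 (SE), with an edgeR FDR of 0.000962, on a mean total of 34.3 counts.

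In the transition zone, the gate at the ciliary base, Tctn2 was called and Tctn1, Tctn3 and Mks1 were not. Tctn2 (ENSMUSG00000029386, chr5:124598749-124627738, plus strand) is a tectonic, a member of the complex that keeps membrane proteins in the cilium. Tctn2 is typed as a processed transcript, not as protein coding, in the GENCODE release used here. It had B6 counts of 91.0, 88.4, 79.6, 39.3, 66.4, 30.02 and 68.0 in mice 1, 2, 3, 4, 5, 7 and 8. Its CAST counts were 183, 159.6, 159.5, 116.7, 218, 89.98 and 143, above B6 in every mouse and most so in mice 4, 5 and 7, with log2 ratios of 1.56, 1.71 and 1.57 beside 0.85 to 1.07 in the others. The log2 fold change of Tctn2 was 1.23 ± 0.137 (SE), with an FDR of 3.98e-18 by edgeR, and B6 gave 29.7% of its counts on average. Its totals were not whole in any mouse.

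Tctn1 had a log2 fold change of -0.040 ± 0.113 (SE) and an edgeR FDR of 0.918. Its totals were also not whole in any mouse, and 1574 bases of its exons overlap exons of Hvcn1, a proton channel gene, whose own log2 fold change was -1.07 ± 0.143 (SE) with an FDR of 2.78e-12. The value of Tctn1 is therefore uncertain. Tctn3 and Mks1 had log2 fold changes of 0.034 ± 0.122 and 0.017 ± 0.145 (SE).

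Ciliary genes are known for the X-box, an inverted repeat bound by RFX factors, and the windows from 250 bases before to 50 bases after each RefSeq gene start were searched on both strands for the X-box consensus with up to 3 spacer bases, and for its arm GTTGCC, which can lie inside an X-box. Windows were held for 38 of the 43 members (RefSeq, GRCm38.p6). An X-box was found in 5 of the 38 members (13.2%) and in 1.75% of 27025 genes, and the arm in 17 members (44.7%) and 14.1% of genes. Of the called members with a window, 2 of 12 held the X-box and 5 of 12 the arm, beside 3 of 26 and 12 of 26 of those not called. The sites of the 5 members are printed to show that the called Ift57 and Tctn2 and the uncalled Tctn1, Tctn3 and Bbs1 carry like sequences. They read 5′ to 3′ on the strand named, with the X-box in capitals and positions counted from the RefSeq start. For Ift57 that start is base 49699294, downstream of the GENCODE start given above, so its X-box nearer to the RefSeq start lies inside the GENCODE gene.
Tctn2, chr5:124598679-124598708, minus strand, the X-box at bases -62 to -49 from the gene start: gaggaccaGTAGCCATGGTAACctccaatc
Ift57, chr16:49699226-49699254, plus strand, at bases -60 to -48: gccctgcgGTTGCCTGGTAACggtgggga
Ift57, chr16:49699199-49699228, minus strand, at bases -87 to -74: ggcagccgGTCACCACGGCAACcagacccg
Tctn3, chr19:40612351-40612379, plus strand, at bases -140 to -128: tggttcccGTTACCTGGCAACcgctggga
Tctn1, chr5:122264411-122264432, plus strand, at bases 36 to 49: GTTGCCCGGGCAACagtcacag
Bbs1, chr19:4906605-4906634, plus strand, at bases 1 to 14: tcccaggcGTCGCCTTGGCAACcagctcag
The letters are those of the reference, which is B6, and no CAST sequence was compared. Ift57 is the member with 2 distinct X-boxes in its window.

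The last group holds proteins of the ciliary membrane and of Hedgehog signalling, of which Evc2 was called and Evc, Arl13b, Nek1, Kif7 and Sufu were not. Evc and Evc2, the genes of Ellis-van Creveld chondrodysplasia, encode partner proteins that sit at the base of the cilium and pass on the signal of Smoothened. They lie head to head on chromosome 5, Evc at chr5:37289098-37336894 on the minus strand and Evc2 at chr5:37338499-37425055 on the plus strand, with 1605 bases between their starts.

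Evc2 had B6 counts of 488, 449.7, 451, 318, 530.3, 203 and 329 in mice 1, 2, 3, 4, 5, 7 and 8. Its CAST counts were 368, 355, 332, 246, 375, 119 and 264, below B6 in every mouse. This gave a log2 fold change of -0.42 ± 0.105 (SE), with an edgeR FDR of 0.00049.

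Evc had B6 counts of 524, 494, 500.1, 355, 593, 221 and 331 in the same mice, and CAST counts of 479.5, 482, 435, 330.1, 517, 201 and 388. It leaned to B6 in 6 of 7 mice, and mouse 8 had a log2 ratio of 0.23. Its log2 fold change was -0.066 ± 0.0976 (SE), with an edgeR FDR of 0.752. The log2 ratio of Evc was above that of Evc2 in every mouse, by 0.37 ± 0.156 on average (SD, n = 7), with a range of 0.24 to 0.63 and a 2-sided exact sign-flip p of 0.0156, or 0.0417 adjusted over the 8 head-to-head pairs compared. The sign-flip p of 0.0156 follows whenever all 7 differences have 1 direction, so it restates that direction and does not measure the size. Its adjusted value also rests on the Ift140 and Ift46 pairs given below, which have the same p.

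Of the 5 uncalled genes, Sufu, a Hedgehog repressor, was at -0.10 ± 0.0977, Arl13b, a GTPase of the ciliary membrane, at 0.011 ± 0.157, and Nek1, a kinase of short-rib syndromes, at 0.0089 ± 0.181 (log2 fold change ± SE). Kif7, the kinesin that organises the ciliary tip, was at 0.14 ± 0.141 with an edgeR FDR of 0.564, which fell to 0.151 when the mouse was entered as a block. Totals of Kif7 were not whole in any mouse. Its exons overlap those of the antisense gene 9330171B17Rik over 877 bases and those of Ticrr over 51 bases. The ratio and the level of Kif7 are therefore uncertain.

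Many ciliary genes start close to a gene on the other strand, so the members with a head-to-head neighbour that starts within 1000 bases and had at least 10 counts in each mouse were set beside it, together with the Evc pair. Cetn4, 154 bases from Bbs12, fell to 4 counts in its lowest mouse and was not compared. Ift140 differed from Cramp1l, which starts 297 bases away and had log2 ratios from -0.12 to 0.21. The difference, Ift140 minus Cramp1l, was -1.21 ± 0.330 (SD, n = 7 mice), with an exact sign-flip p of 0.0156, or 0.0417 adjusted over the 8 pairs. Ift46 was below the coatomer gene Arcn1, 63 bases away, by a mean log2 difference of -0.31 ± 0.173, with the same exact p and adjusted p.

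The other 5 pairs did not pass at an adjusted p of 0.05. Ift80 was below the condensin gene Smc4 by a log2 difference of -0.25 ± 0.197 (adjusted exact p = 0.0625), but the totals of Ift80 were not whole in any mouse. Dync2h1 was below Dcun1d5 by -0.23 ± 0.243 (adjusted exact p = 0.075). Dcun1d5, however, had equal allele counts, to a tolerance of 1e-06, in 4 of 7 mice. The differences of the Ift80 and the Dync2h1 pair are therefore uncertain. For Ift122 and Mbd4, Tctn3 and Entpd1, and Ift20 and Tnfaip1 the differences were 0.26 ± 0.656, 0.11 ± 0.370 and -0.00097 ± 0.246 (SD, n = 7). Their ranges over mice, -0.83 to 1.15, -0.57 to 0.65 and -0.45 to 0.24, included both directions.

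**Figure D4:**
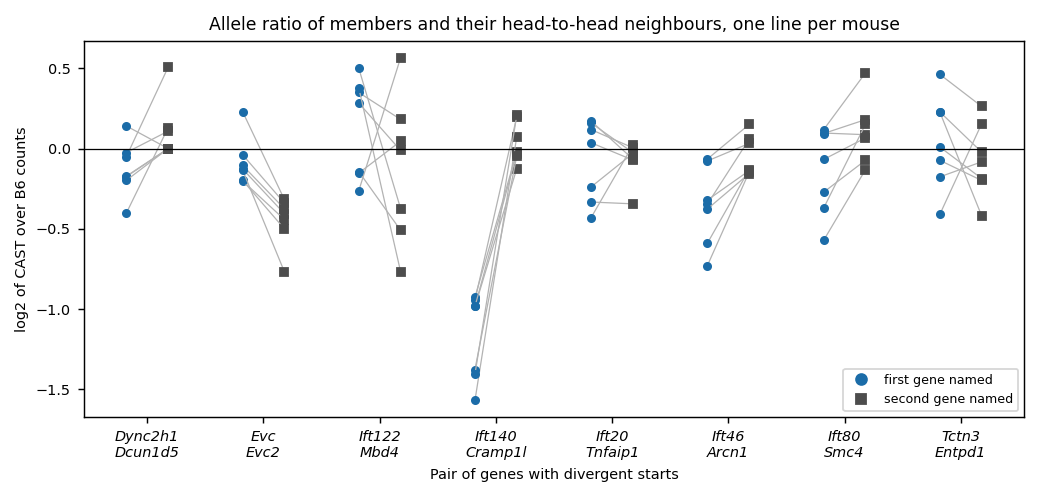
Log2 ratio of CAST over B6 counts for each member (blue circles) and its head-to-head neighbour (grey squares), with a line for each mouse. Every line rises from Ift140 to Cramp1l and from Ift46 to Arcn1, and every line falls from Evc to Evc2, while lines cross for Ift122, Ift20 and Tctn3.

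With both alleles summed, the levels of the members, in CPM per kilobase of exon, differed 65.3-fold from highest to lowest, with a median of 1.403. The median over all genes counted 10 times or more in every mouse was 3.07, and 12 members lay above it. Ift20, the IFT-B subunit that also works at the Golgi, was highest at 22.9 ± 2.99 (SD, n = 7), with levels of 23.8, 25.1, 27.4, 18.8, 19.8, 23.7 and 21.8 in mice 1, 2, 3, 4, 5, 7 and 8. Its lowest mouse lay above the highest mouse of any other member.

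Kif7 followed at 5.37 ± 0.777 CPM per kilobase, with levels of 4.86, 5.14, 6.40, 6.57, 4.85, 5.01 and 4.73 in the same order of mice. Its 2 highest mice, 4 and 3, also had the highest chondrocyte marker sums, 100300 and 84220 CPM, beside 62910 to 83150 CPM in the others, and the part of cell makeup in the level was not tested. Ift140 was next at 4.74 ± 0.948, with levels of 4.71, 3.79, 3.88, 4.31, 6.17, 5.92 and 4.39. Kif7 and Ift140 overlapped across mice, as did Ift140, Evc2 (4.46 ± 0.361) and Evc (4.11 ± 0.228), while the lowest mouse of Kif7, at 4.73, lay above the highest of Evc, at 4.398. That separation rests on the exon union as length, which is 7701 bases for Evc and 4581 for Kif7. Evc had more CPM than Kif7 (means of 31.7 and 24.6) and a shorter longest transcript (4325 and 4577 bases). With the longest transcript as length, Evc would therefore stand above Kif7.

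At the low end stood Ift81 at 0.351 ± 0.0303, Bbs10 at 0.419 ± 0.0877 and Bbs4 at 0.453 ± 0.0838 CPM per kilobase (SD, n = 7). Ift81 had levels of 0.364, 0.363, 0.385, 0.350, 0.344, 0.364 and 0.289 in mice 1, 2, 3, 4, 5, 7 and 8. Bbs10 had levels of 0.322, 0.375, 0.392, 0.359, 0.581, 0.419 and 0.484, and Bbs4 of 0.509, 0.367, 0.534, 0.370, 0.560, 0.458 and 0.370, so these 3 overlapped, and Bbs5, Wdr19 and Bbs7 overlapped with Bbs4 at means of 0.464, 0.466 and 0.479. The order also rests on the exon union, 5840 bases for Ift81 and 3049 for Bbs10. Ift81 had more CPM than Bbs10 (means of 2.05 and 1.28) and a shorter longest transcript (2950 and 3047 bases). With the longest transcript as length, Ift81 would therefore lie above Bbs10.

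Subunits of 1 complex were not at 1 level. Levels per length spanned 26.6-fold among the 4 peripheral IFT-B genes, 11.4-fold in the IFT-B core and 10.2-fold in IFT-A, where Ift140 at 4.74 and Wdr19 at 0.466 CPM per kilobase were the extremes. They spanned 2.44-fold in the transition zone genes and 2.88-fold in kinesin-2, where Kif3b (3.35 ± 0.313) and Kifap3 (3.32 ± 0.430) overlapped and Kif3a stood at 1.17 ± 0.130 (SD, n = 7). All these spans and extremes rest on the exon union as length. Per kilobase of the exon union, Evc2 lay above Evc in each of the 7 mice, with the narrowest gap in mouse 7. The levels were 3.91 to 4.86 for Evc2 and 3.81 to 4.398 for Evc. Before division by length the order was the reverse, at means of 26.0 CPM for Evc2 and 31.7 CPM for Evc. The exon unions are 5837 and 7701 bases and the longest transcripts 4091 and 4325 bases, so the order depends on the length used.

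**Figure D5:**
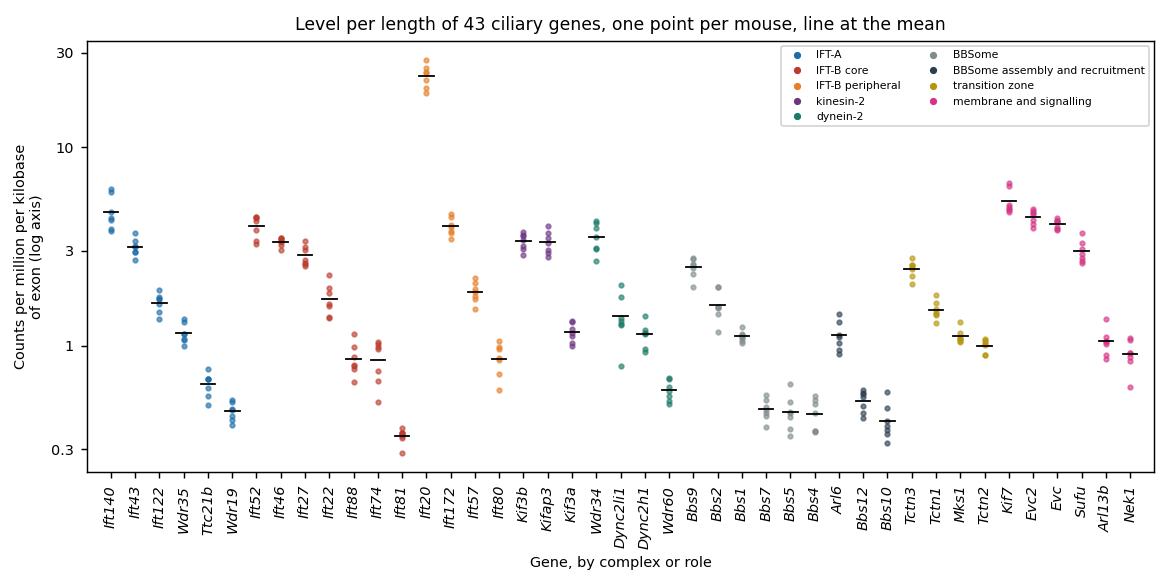
Level of each member in CPM per kilobase of exon on a log axis, 1 point per mouse and a line at the mean of 7 mice, by complex or role. Ift20 stands alone at 22.9, and Ift81, Bbs10 and Bbs4 lie lowest at 0.351 to 0.453.

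The coefficient of variation of the level over the 7 mice was 4.95% for Ift46, the steadiest, and 27.7% for Dync2li1, the most variable, with a median of 12.4% over the members and 15.1% over all genes counted 10 times or more in every mouse. Summed over the members, B6 gave 51.6% to 54.0% of the counts in each mouse, beside 49.4% to 49.7% over autosomal genes. Ift140, with 1042 counts per mouse on average, was the member with the most counts, and without it B6 gave 50.3% to 51.9% of the members' counts.

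Other genes of the cilium were taken as a list of 52 ciliogenesis, transition zone and Hedgehog genes, of which 51 were found and tested. Of these, 17 (33.3%) were called, 9 higher on CAST and 8 higher on B6, beside 34.5% of all genes tested, and their median log2 fold change was 0.08. Without the X-linked Ofd1 and Rpgr, 15 of 49 were called (30.6%), 9 higher on CAST and 6 on B6, and a fit of autosomal genes alone called 14. The smallest p-values higher on CAST belonged to Cep164, a distal appendage protein that docks the basal body (log2 fold change 0.68 ± 0.0923, FDR 5.49e-12 by edgeR), Tulp3, an IFT-A adaptor (0.49 ± 0.0921, FDR 1.32e-06, totals not whole in any mouse), and Ddx59, a helicase of oral-facial-digital syndrome (0.70 ± 0.135, FDR 2.69e-06). All 3 were higher on CAST in all 7 mice.

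On the B6 side the smallest p-values belonged to Ofd1, Rpgr and Tctex1d2. Ofd1, a centriolar satellite protein, and Rpgr, a connecting cilium protein, are on the X chromosome, of which males have 1 copy. Their B6 counts were 83.9 ± 26.9 and 37.9 ± 16.1 and their CAST counts averaged 0.00404 and 0.00171 (n = 7), so no fold is given. The X of a male comes from his mother, so the mothers of these mice passed on a B6 X. Tctex1d2, a dynein-2 light chain, had 25.6 ± 15.2 B6 and 8.14 ± 3.76 CAST counts (SD, n = 7). Its log2 fold change was -1.53 ± 0.349 (SE), with an edgeR FDR of 9.03e-05, and it was lower on CAST in all 7 mice.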

How the data were processed

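Stranded total RNA libraries of tibial growth plates from 7 male F1 mice were sequenced by the study. For each read end and lane the authors ran Bowtie against the B6 and CAST transcripts together (mm10, up to 3 mismatches) and divided the reads among genes and alleles with EMASE, and the deposited values are estimated counts per gene and allele, neither normalized nor always whole. Because read ends were handled separately, counts are not independent molecules, and the totals exceed the average number of read pairs that the study states. The annotation version behind the counts is not given in the sources used here.

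Names, coordinates and exon lengths came from GENCODE M21 (GRCm38), which holds 42462 of 43346 identifiers (98.0%). Genes with a count above 0 in every mouse, values up to 1e-09 taken as 0, were tested (20235). Rounded counts were compared between alleles with edgeR 4.0.16 (R 4.3.3; TMM, estimateDisp with the allele, glmFit and glmLRT, the study's test), with Benjamini-Hochberg adjustment over all tested genes and a threshold of 0.20. The exact sign-flip test used log2 ratios with 0.5 added to each count. Levels are CPM per kilobase of the exon union. The fit was tested on simulated counts, where the share of false calls was above the nominal threshold.

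Both alleles of a mouse share a library, and their deviations from the allele means correlated by 0.176 to 0.452 within mice over 15111 genes. The highest such correlation between different mice was 0.294, so the ranges overlapped. Alternatives were the quasi-likelihood test, DESeq2 1.42.0, the mouse as a block, library sizes, filters, thresholds, pseudocounts, lengths, and each mouse left out. The member genes and all lists were chosen with earlier results of these data known. By a rule set with the lists, any member could be named, and values in all mice were given for called members with 1 direction in all mice, Bbs4, Evc and Evc2, and the 3 highest and 3 lowest by level. From the wider list the 3 smallest p-values in each direction were named. Bbs10 was given in all mice in addition, chosen after its values were seen. Mice are separate animals, and depth, 14098019 to 37849667 counts per mouse, limits genes with few counts.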

Additional observations from a re-analysis of the deposited data

Results flagged for a closer look

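In 6 of 86 sets of 7 mouse values (the level and the log2 ratio of each member), the mouse at one end stood apart from the others by Dixon's criterion, where chance gives about 1 in 20 sets, or 4.3. For the log2 ratio of CAST to B6 counts these were Bbs2 in mouse 7 (1.06), Kif3b in mouse 8 (0.62), Evc in mouse 8 (0.23) and Evc2 in mouse 7 (-0.77). For the level, in CPM per kilobase, they were Ift81 in mouse 8 (0.289) and Mks1 in mouse 7 (1.32). Mouse 7 had the fewest counts of the 7 mice. Evc2 had the direction of the other mice in mouse 7, while Evc in mouse 8 was the sole mouse of 7 with more CAST than B6 counts.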

How the results depend on the processing

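Counts of called members, in both directions and each, the wider list's count and the count over all genes stayed within 1.5 times their values under every alternative run. With the mouse as a block (likelihood-ratio test), 14 members were called, the 13 and Kif7 (log2 fold change 0.14, FDR 0.151), and 9171 of all genes against 6976, while with the block and the quasi-likelihood test 13 members were called. Apart from Kif7, the block changed no member's call. Kif3a lost its call when any count in any mouse sufficed for testing (-0.28, FDR 0.224). The median member level of 1.403 was 1.94 with the longest transcript as length, 1.75 without Rn7s1, Rn7s2 and Rn7sk in the total, and 1.301 to 1.506 with 1 mouse left out. With 1 mouse left out, Ift43 ran from -0.61 to -0.32, Kif3a from -0.34 to -0.20, Ift81 from -0.69 to -0.18, Ift20 from -0.092 to 0.0011, Tctn1 from -0.098 to 0.018, Tctn3 from -0.026 to 0.11, Bbs4 from -0.43 to -0.0026, Dync2h1 from -0.16 to -0.058 and Wdr60 from -0.12 to 0.33. The sign of 13 uncalled members changed in 37 of 645 single-gene values, all between -0.16 and 0.14, and no called member changed sign. The causes were not tested. Taking every value above 0 as a count was an alternative chosen after seeing the data.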
